A study of Mus musculus with 40 samples.

Results

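A set of 10 genes that move protons, chloride, sodium and calcium across epithelia were followed through 40 RNA-seq libraries of mouse embryonic lung tips and of organoids grown from tip epithelium. The genes are Atp6v0a4, Atp6v1b1, Atp6v1c2 and Tmem213 on the proton side, Cftr and Slc26a4 on the anion side, Scnn1a, Scnn1b and Scnn1g for sodium, and Trpv6 for calcium. They are 10 of 55260 genes, or of 55286 in the table of the organoids labelled LO, were found in every table by symbol, and were chosen by how they behaved in these same libraries. Their differences between conditions are therefore a description. Counts of calls stand beside the share of all genes called and nothing is read from them, and a test is read only in the organoid pieces, a condition outside the choice. The share of all genes whose groups did not overlap is not given here, so a lack of overlap is a description as well.

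The 40 libraries form 5 tables. The first holds 4 tips, taken a day apart from E10.5 to E13.5 (embryonic days) with 1 library per stage, and 10 organoids started from tips of E9.5, E10.5, E11.5, E13.5 or E14 and cultured for 11 to 32 days. The second holds 8 pieces of organoids, 4 of them larger (upper, lower, left and right) and 4 smaller (upper left, upper right, lower left and lower right), and 1 intact organoid. The third holds the organoids labelled LO at day 8, day 11 and day 18, and at day 11 with DCI. The fourth holds 2C, 2C+F10, 2C+MTG, 2C+VC and 1 unnumbered ALL library. The fifth holds 2 libraries each of ALL, ALL-FGF10, ALL-MTG and, as the fourth group, ALL-VC. These names are read here as a complete medium and the same medium without 1 component. The labels do not spell out LO, DCI, 2C, MTG, VC or F10, name no mouse strain or genotype, and do not say whether a library is 1 organoid, 1 embryo or a pool.

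Values are TPM, a transcript abundance scaled for gene length and for the total of the library, so levels of different genes within a library can be set side by side. TPM keeps no sequencing depth, and the counting error of a value is unknown. Between 13036 and 14401 genes reached 1 TPM in a library. Nkx2-1, which marks lung and thyroid epithelium, was at 229 to 476 TPM in all 40 libraries, and the summed level of 6 thyroid markers was 0.13 to 3.17 TPM. Foxi1, the forkhead factor that defines ionocytes and intercalated cells, and its relatives Foxi2 and Foxi3 were listed at 0 in all 40 libraries. The 9 genes listed as markers of those cells, these 3 among them, summed to 0.58 to 14.3 TPM. The unnumbered ALL library and the 2 numbered ALL libraries carry the same name and differ widely for 1 of the genes: Slc26a4 was at 1.28 TPM in the first and at 222 and 129 TPM in the others. They come from separate tables and were not compared by a test.

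Before birth the lung epithelium secretes chloride, and sodium and water follow into the lumen. Around birth the epithelium turns to sodium absorption through the epithelial sodium channel ENaC, whose alpha, beta and gamma subunits are encoded by Scnn1a, Scnn1b and Scnn1g, with the sodium pump on the other side of the cell. The vacuolar proton pump (V-ATPase) has a membrane sector, V0, and a catalytic sector, V1, and acidifies organelles in all cells. Subunits such as a4 (Atp6v0a4), B1 (Atp6v1b1) and C2 (Atp6v1c2) are made in fewer tissues. Cells that pump acid across their surface are among those that use them. An RNA level does not show where in a cell the pump works. Tmem213 encodes a small membrane protein found in such acid-secreting cells. Cftr is the cAMP-gated chloride and bicarbonate channel, Slc26a4 (pendrin) exchanges chloride for bicarbonate or iodide, and Trpv6 is a calcium entry channel.

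In the GENCODE annotation of GRCm38, Tmem213 lies at chr6:38109255-38115809 on the plus strand, inside Atp6v0a4, which runs over chr6:38048483-38124586 on the minus strand. Exons of the pair share 62 bases, chr6:38109488-38109549, in 1 of the 7 annotated Atp6v0a4 transcripts. Whether reads were assigned by strand is not given in the sources used here, so reads from those bases cannot be told apart. Scnn1g (chr7:121734479-121768475) and Scnn1b (chr7:121865038-121918514) are neighbours on the plus strand, 96.6 kb apart. Cftr lies at chr6:18170687-18322768, Scnn1a at chr6:125320659-125344943, Trpv6 at chr6:41620624-41636405, Atp6v1b1 at chr6:83742990-83758855, Atp6v1c2 at chr12:17284721-17329359 and Slc26a4 at chr12:31519827-31559969.

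Upstream sequences are shown for 3 genes on which the results turn: Tmem213, with the widest range under DCI, Trpv6, which separated 2 of the media, and Slc26a4, which was lower in every medium lacking a component. They are from RefSeq (GRCm38.p6), end at or before the annotated start of transcription, and run 5′ to 3′ on the gene's strand. Capitals mark matches, on either strand, to 4 motifs: the glucocorticoid receptor core AGAACA, the cAMP response element core TGACG, the forkhead site TGTTTAC and the NK2 homeodomain core CAAGTG. None of these motifs overlap each other in the letters shown.
Tmem213, chr6:38109103-38109254, plus strand: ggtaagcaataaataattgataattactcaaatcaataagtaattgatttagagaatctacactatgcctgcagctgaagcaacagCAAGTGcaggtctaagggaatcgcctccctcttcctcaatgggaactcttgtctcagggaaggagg
Trpv6, chr6:41636406-41636655, minus strand: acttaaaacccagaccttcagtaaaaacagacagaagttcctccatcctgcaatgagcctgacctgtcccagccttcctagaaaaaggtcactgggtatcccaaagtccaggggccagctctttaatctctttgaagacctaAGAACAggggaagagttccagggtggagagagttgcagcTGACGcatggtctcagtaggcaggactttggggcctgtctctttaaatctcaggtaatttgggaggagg
Slc26a4, chr12:31559985-31560234, minus strand: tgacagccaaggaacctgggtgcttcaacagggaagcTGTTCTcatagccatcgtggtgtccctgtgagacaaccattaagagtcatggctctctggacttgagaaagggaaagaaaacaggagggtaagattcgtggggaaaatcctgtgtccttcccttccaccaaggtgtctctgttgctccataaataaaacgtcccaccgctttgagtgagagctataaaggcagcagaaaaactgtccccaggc

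Over the 250 bases before the start, the sequence table held 9 of the 10 genes; Scnn1a was not among them. Tmem213, Atp6v0a4 and Scnn1g held CAAGTG, as did 11.6% of 32851 promoters. All 250 bases of the Atp6v0a4 window lay in exons, of Atp6v0a4 itself or of the neighbouring gene D630045J12Rik. For Tmem213, 98 of the 250 bases lay in exons and are not printed above. Trpv6 and Slc26a4 held AGAACA, found in 16.1% of promoters, and Trpv6 alone among the 9 held TGACG, found in 17.8%. Atp6v1b1 held TGTTTAC, found in 3.2%. The motifs were picked with the sequences and results known, and a match is a run of letters only.

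In tips, most of the 10 genes were low. Atp6v1c2, the C2 subunit, was at 3.76, 5.77, 2.09 and 2.79 TPM from the youngest tip to the oldest, while Atp6v1b1 and Slc26a4 were listed at 0 in all 4 tips and Atp6v0a4 did not exceed 0.10 TPM. Cftr was at 1.92, 1.16, 9.48 and 22.11 TPM in the same order, so that the chloride channel was highest in the oldest tip. Scnn1a was at 12.13, 6.31, 4.17 and 2.29 TPM, lower at each later stage. Scnn1b stayed at or under 0.42 TPM and Scnn1g at or under 2.49 TPM, and Trpv6 was at 2.02 to 5.12 TPM. A line over embryonic day on the log2(TPM + 1) scale, fitted with limma to all genes, gave Cftr a difference of 3.37 over the 3 days and Scnn1a one of -1.95. A gene was called where its p adjusted over all tested genes was under 0.05. Here 0.733% of 16779 genes were called, and 1 of the 9 transport genes tested, which was Cftr; the count was 0 under other scalings. There is 1 library per stage.

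Between organoids and tips 61.9% of 16779 genes were called, and 6 of the 9 transport genes tested (66.7%), a share near that of all genes. These 6, all higher in organoids, were Atp6v1c2, Cftr, Slc26a4, Scnn1a, Scnn1b and Scnn1g. Atp6v1c2 went from 3.60 ± 1.60 TPM (SD, n = 4 tips) to 51.5 ± 14.2 TPM (SD, n = 10 organoids), with a lowest organoid of 36.57, a median of 47.26 and a highest of 79.40 TPM. The 2 groups did not overlap, and the difference was 3.53 on the log2(TPM + 1) scale. Against its widely expressed counterpart Atp6v1c1, Atp6v1c2 stood at a TPM ratio of 0.096 to 0.199 in tips and of 0.922 to 2.31 in organoids. Atp6v1b1, the other V1 subunit of restricted expression among the 10 genes, reached at most 0.91 TPM in organoids and 1.05 TPM in any of the 40 libraries. It was listed at 0 in 32 of them.

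The 3 ENaC subunits were all higher in organoids. Scnn1a had a lowest value of 18.30, a median of 31.02 and a highest of 45.94 TPM over 10 organoids, against 2.29 to 12.13 TPM in tips, a difference of 2.27 on the log2 scale. Scnn1b ranged from 16.12 through a median of 19.72 to 51.19 TPM, a difference of 4.28. Scnn1g ranged from 18.30 through 32.33 to 46.50 TPM, a difference of 4.06. The subunits were thus near one another in organoids: the ratio of Scnn1a to Scnn1g was 0.646 to 2.15, and Scnn1a was the highest of the 3 in 4 organoids, Scnn1g in 4 and Scnn1b in 2.

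Of the anion transporters, Cftr ranged from 17.56 through 26.57 to 43.92 TPM in organoids, a difference of 2.18 from tips on the log2 scale. The E13.5 tip, at 22.11 TPM, lay within that range. Slc26a4, listed at 0 in the tips, was above 0 in all 10 organoids, with a lowest value of 0.22, a median of 5.68 and a highest of 139.56 TPM. Tmem213 was at 0.42 to 30.02 TPM in organoids and 0 to 2.45 TPM in tips, Trpv6 at 0.89 to 32.73 TPM, and Atp6v0a4 at 0 to 2.51 TPM; these 3 overlapped with tips. Atp6v1b1 did not pass the filter of 1 TPM in 2 libraries. In bulk libraries, fewer cells of a type and less RNA per cell cannot be told apart. Mesenchymal, endothelial and blood markers, 12 genes, summed to 102 to 217 TPM in tips and 4.65 to 317 TPM in organoids, and the 10 alveolar type 2 markers to 792 to 1146 and 55221 to 137047 TPM. Most of the alveolar type 2 sum was Etv5 in tips (mean 641 TPM) and Sftpc in organoids (mean 81835 TPM). Slc34a2 of the same list had a mean of 0.02 TPM in tips. The part of these cells in the differences was not tested.

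**Figure D1:**
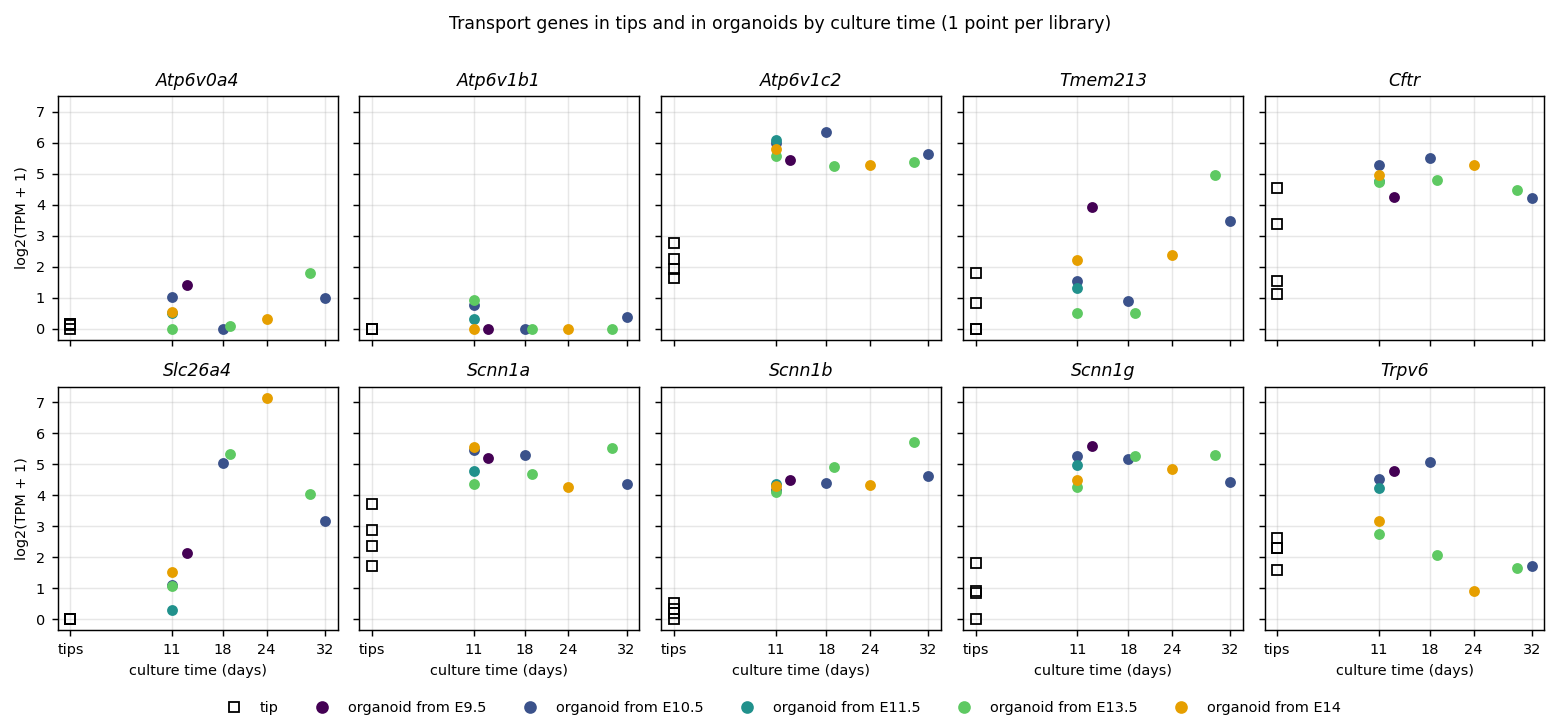
Level of each of the 10 genes, as log2(TPM + 1), in 4 tips (open squares) and 10 organoids placed by days in culture (filled circles, coloured by the embryonic day of the starting tip), 1 point per library. Atp6v1c2, Scnn1a, Scnn1b and Scnn1g were higher in every organoid than in every tip, Slc26a4 was highest at 24 days, and Trpv6 was lowest from 24 days on.

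The widely expressed V-ATPase subunits were also higher in organoids. Of 8 such V1 subunits 6 rose and none fell, with a median difference of 0.65, and of 9 V0 and accessory subunits 8 rose and none fell, with a median of 1.13, where the median over all genes was -0.20. Tcirg1, the a3 subunit, went from 9.29 ± 4.58 to 32.1 ± 9.5 TPM, and Atp6v0d1 from 47.9 ± 7.1 to 139 ± 15 TPM (SD, n = 4 and n = 10). With 2 other scalings of the libraries all 8 V1 subunits rose. Of 21 tested genes that process or regulate ENaC, 10 rose and 7 fell. Atp1b1, a subunit of the sodium pump, rose from 29.0 ± 2.9 to 268 ± 59 TPM, Sgk1, the kinase that keeps ENaC at the surface, rose from 3.11 ± 2.14 to 13.8 ± 8.0 TPM, and Hsd11b2, which inactivates glucocorticoid, fell from 29.2 ± 14.4 to 1.49 ± 1.49 TPM. Of 16 chloride channels and partners 9 rose and 5 fell; Ano1, a calcium-gated chloride channel, rose from 29.4 ± 10.6 to 177 ± 41 TPM and Slc26a9, an epithelial chloride transporter, from 12.1 ± 4.8 to 67.9 ± 26.9 TPM.

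Acid-base carriers and carbonic anhydrases were split, 5 rising and 5 falling of 11 tested. Car8, a carbonic anhydrase relative without the enzyme activity, rose from 0.383 ± 0.590 to 45.0 ± 15.3 TPM, and Car14 fell from 50.7 ± 34.1 to 0.409 ± 0.283 TPM. Of 6 calcium transport genes 2 rose and 3 fell; S100g, the calcium-binding protein calbindin-D9k that works with Trpv6 in gut, rose by 4.23 on the log2 scale, from 3.70 ± 5.17 TPM in tips, with an SD among organoids of 123 TPM. Of 4 water channels 2 rose: Aqp5 from 0.223 ± 0.445 to 56.6 ± 32.0 TPM and Aqp1 from 0.235 ± 0.207 to 23.9 ± 31.1 TPM. Across the 8 lists 63 of 77 tested genes (81.8%) were called, beside 61.9% of all genes.

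With time in culture, Slc26a4 was higher in the older organoids and Trpv6 was lower in most of them. Slc26a4 was at 1.13, 0.22, 1.10, 1.87 and 3.40 TPM in the 5 organoids of 11 to 13 days and at 31.84, 39.11, 139.56, 7.96 and 15.44 TPM in those of 18 (E10.5 start), 19 (E13.5), 24 (E14), 32 (E10.5) and 30 (E13.5) days. The 2 sets did not overlap, but the highest value was at 24 days and not at the end, and a straight line over the 21 days between the shortest and the longest culture gave a difference of 3.46. Trpv6 was at 21.89, 17.62, 5.76, 7.90 and 26.21 TPM in the younger organoids and at 32.73, 3.19, 0.89, 2.26 and 2.10 TPM in the older ones, in the same orders. Its line gave a difference of -2.41 over the 21 days, and one of -1.69 without the 32-day organoid. The 18-day organoid was the highest of all, above the younger ones.

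Trpv6 also differed by starting stage: after 11 to 13 days the organoids from E9.5, E10.5 and E11.5 held 17.62 to 26.21 TPM and those from E13.5 and E14 held 5.76 and 7.90 TPM. Its line over the 4.5 days of starting stage gave -2.39. Tmem213 and Atp6v0a4 were highest in the same 2 organoids, the 13-day one from E9.5 (14.02 and 1.66 TPM) and the 30-day one from E13.5 (30.02 and 2.51 TPM). Scnn1b was also highest in the 30-day organoid, at 51.19 TPM against 16.12 to 28.84 TPM in the others. For culture day 9.64% of genes were called, and 1 of the 9 transport genes, Trpv6, or 0 without the 32-day organoid; for starting stage 0.0536% of genes, 9 in all, were called by limma and none of the transport genes. At an unadjusted p under 0.05, 1250 genes passed for starting stage. Of the 77 pathway genes 8 (10.4%) were called for culture day, 3 higher and 5 lower with time. Stk39, a kinase acting on chloride cotransporters, rose by 0.73 over the 21 days and the V1 subunit gene Atp6v1b2 by 0.52. Aqp1 fell by 4.12, Fxyd3, a sodium pump regulator, by 2.49 and Clcn2, a chloride channel, by 1.17. Aqp1 was called under all 19 alternatives, and without the 32-day organoid Fxyd3 (limma, adjusted p = 0.12) and Clcn2 (limma, adjusted p = 0.22) were not; Stk39 was not called in 13 of 19. Over all genes called for culture day 30.8% were higher, and 59.9% with median-ratio rescaling.

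Over the 3 LO time points, 1 library each and without a replicate check, most of the 10 genes were highest at day 18. Cftr was at 4.99, 5.18 and 52.37 TPM at days 8, 11 and 18, and Slc26a4 was listed at 0 on days 8 and 11 and at 36.24 TPM on day 18. Both anion transporters were far above their earlier levels at day 18. Atp6v1c2 was at 16.79, 33.17 and 82.69 TPM, Trpv6 at 4.37, 8.05 and 31.09 TPM, and Scnn1g at 8.53, 12.14 and 35.40 TPM. Those 3 were higher at each later day. Scnn1a, at 16.09, 30.18 and 41.61 TPM, followed the same order, and Scnn1b, at 10.27, 6.48 and 21.28 TPM, dipped at day 11. Tmem213 and Atp6v0a4 did not exceed 0.44 TPM and 0.40 TPM on any of the 3 days.

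Between single libraries a gene was counted where log2(TPM + 1) differed by at least 1 and the higher library held at least 5 TPM. From day 8 to day 11, 5.25% of the genes reaching 5 TPM passed and 0 of the 6 transport genes that reached it. From day 11 to day 18, 14.1% passed, and 6 of 7 transport genes, all higher: Atp6v1c2 (1.29), Cftr (3.11), Scnn1b (1.57), Scnn1g (1.47), Trpv6 (1.83) and Slc26a4, which reached 5 TPM through the day 18 library alone. In the same step 9 of 59 pathway genes (15.3%) passed, 6 higher and 3 lower. S100g went from 16.52 to 390.60 TPM, Car8 from 13.27 to 84.66 TPM and Aqp5 from 5.45 to 80.28 TPM, while Aqp1 went from 106.63 to 7.77 TPM. Markers of several cell types also differed. At day 18, 9 of 10 alveolar type 2 markers and 5 of 8 alveolar type 1 markers were higher, and all 4 mesenchymal, endothelial and blood markers that reached 5 TPM were lower, the sum of that list going from 71.8 to 6.11 TPM. Their part in these differences was not tested.

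The widest differences of the set were in the LO library with DCI at day 11. Tmem213 was at 296.79 TPM with DCI and at 0.42 TPM in the day 11 library without it, and Atp6v0a4 at 120.64 and 0.18 TPM. In the other 39 libraries, Tmem213 did not exceed 61.93 TPM and Atp6v0a4 did not exceed 18.56 TPM. On the log2(TPM + 1) scale the differences were 7.71 and 6.69, at ranks 4 and 13 of the 1270 genes that were higher by the fold used. Among the a subunits of V0 (Atp6v0a1, Atp6v0a2, Tcirg1 and Atp6v0a4), Atp6v0a4 made up 33.7% of the summed TPM in this library, against a median of 0.173% over the 40 libraries. Both genes of the overlapping pair were thus high in 1 library, with Tmem213 at 2.46 times the TPM of Atp6v0a4. D630045J12Rik, whose last exon covers the start of Atp6v0a4 on the same strand, was at 3.02 TPM without DCI and 2.29 TPM with it.

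The ENaC subunits were the next widest of the 10. Scnn1a was at 30.18 TPM without and 482.79 TPM with DCI, Scnn1b at 6.48 and 119.98 TPM, and Scnn1g at 12.14 and 138.66 TPM. The differences on the log2 scale were 3.96, 4.02 and 3.41, and the 3 subunits summed to 741 TPM, where the 10 organoids of the time course held 53.7 to 134 TPM. Trpv6 went from 8.05 to 41.44 TPM (2.23) and Cftr from 5.18 to 15.35 TPM (1.40). The Cftr value with DCI was still below the 52.37 TPM of the untreated day 18 library. Atp6v1c2, at 33.17 and 56.96 TPM, did not reach the fold, Slc26a4 was at 4.42 TPM against a listing of 0, and Atp6v1b1 at 0 against 0.34 TPM. Of the 8 transport genes reaching 5 TPM, 7 passed, all higher, where 24.2% of all genes reaching 5 TPM did; Tmem213 and Atp6v0a4 reached it through the DCI library alone.

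**Figure D2:**
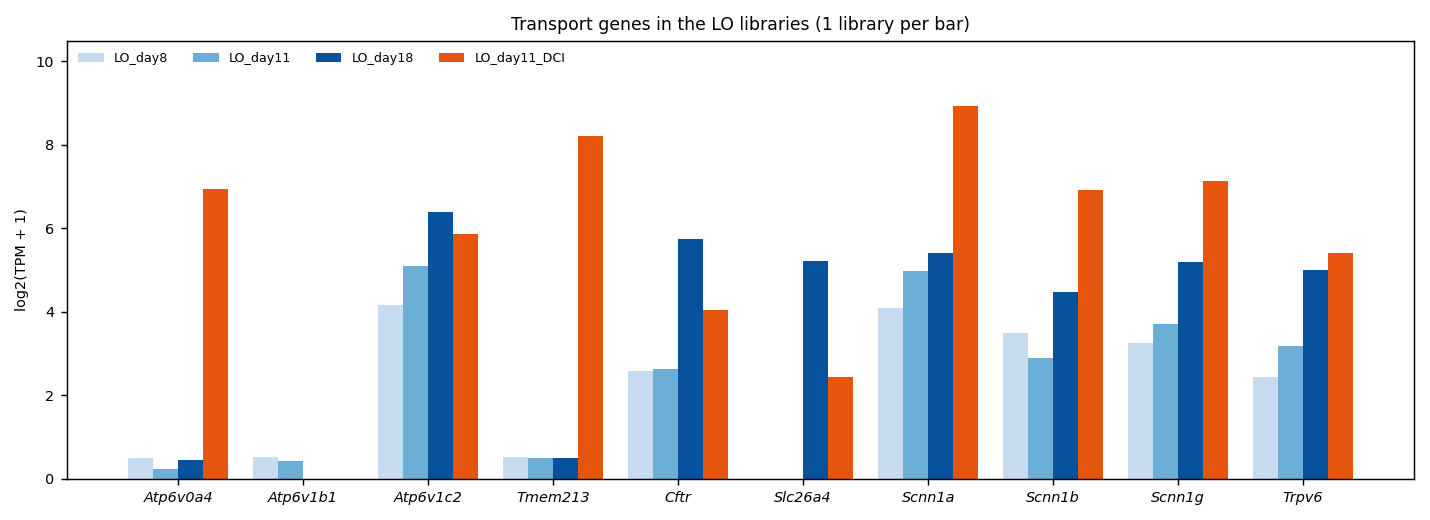
Level of each gene, as log2(TPM + 1), in the LO libraries of day 8, day 11, day 18 and day 11 with DCI, 1 bar per library. Tmem213 and Atp6v0a4 were under 1 TPM in the 3 libraries without DCI and at 296.79 and 120.64 TPM with it, while Slc26a4 was highest in the day 18 library.

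Of the 61 genes of the pathway lists that reached 5 TPM, 17 were higher with DCI and 2 lower by the fold used (31.1%, beside 24.2% of all genes), with a median difference of 0.42 where that of all genes was -0.08. The widest of these differences, in Aqp5 (5.97) and S100g (5.29), were larger than those of the ENaC subunits. All 3 water channels that reached 5 TPM were higher: Aqp5 went from 5.45 to 403.32 TPM, Aqp1 from 106.63 to 981.15 TPM and Aqp3 from 0.12 to 8.79 TPM. Of 18 sodium channel regulators 6 were higher and 1 lower. They included Nedd4l, the ubiquitin ligase that removes ENaC from the surface (40.37 to 320.73 TPM), Atp1b1 (196.25 to 998.48 TPM) and the kinase gene Stk39 (6.40 to 29.99 TPM); Fxyd3 was the one lower, at 153.84 and 35.75 TPM. S100g went from 16.52 to 682.91 TPM.

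Of the 17 widely expressed proton pump genes, 4 passed (23.5%), near the share of all genes, with medians of 0.43 for V1 and 0.89 for V0 and accessory subunits. Of the V1 subunits 2 of 8 passed, Atp6v1b2 (59.44 to 144.76 TPM) and Atp6v1g1 (196.73 to 438.22 TPM), and of V0 and accessory subunits 2 of 9, Atp6v0b (92.82 to 359.32 TPM) and Atp6v0e (88.87 to 203.60 TPM). None of the 6 acid-base genes reaching 5 TPM was higher; Car2, the abundant cytosolic carbonic anhydrase, went from 288.55 to 143.23 TPM. Markers of lung cells differed too: all 8 alveolar type 1 markers were higher, their sum going from 687 to 5557 TPM, and 8 of 10 alveolar type 2 markers were higher and 1 lower. Of 8 airway secretory and ciliated markers only 1 reached 5 TPM, Scgb1a1, at 413.29 TPM against a listing of 0. Of 7 lung epithelium markers reaching 5 TPM, 4 were lower (Id2, Sox9, Epcam and Etv5) and 0 higher. The 9 ionocyte and intercalated cell markers summed to 1.90 TPM without and 3.50 TPM with DCI, and Foxi1 was listed at 0 in both. The part of cell makeup in these differences was not tested, and DCI and the single library that carries it cannot be told apart.

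**Figure D3:**
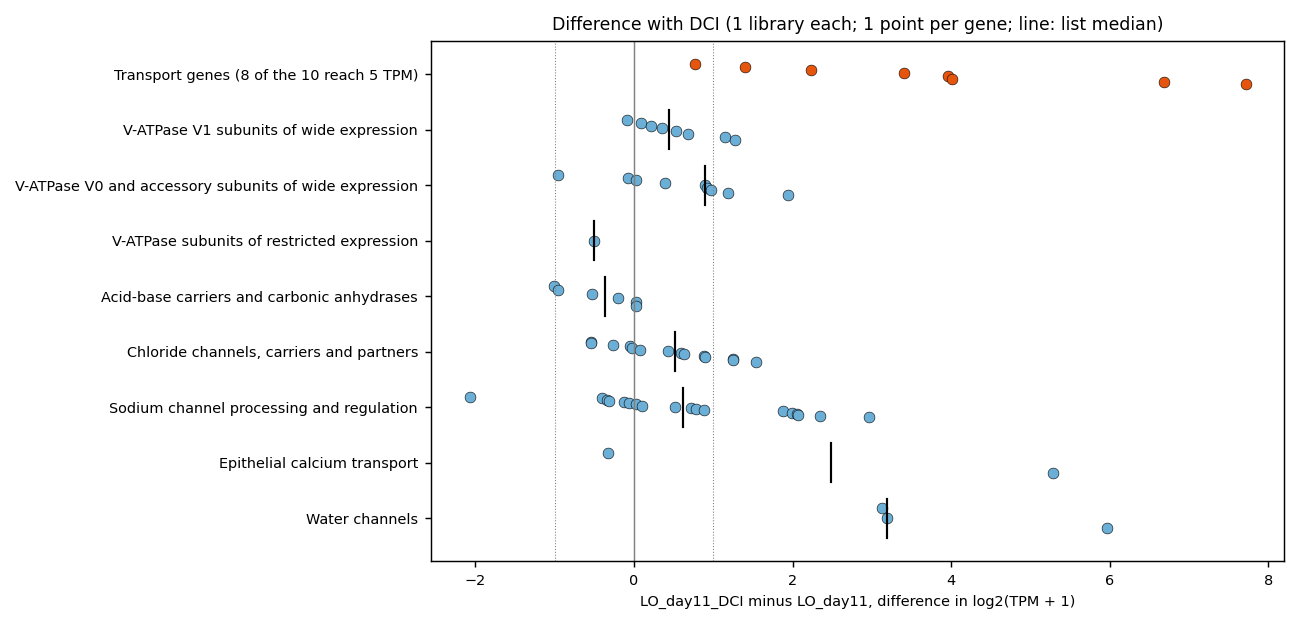
Difference between the LO day 11 library with DCI and the one without, in log2(TPM + 1), for each transport gene and each gene of the 8 pathway lists reaching 5 TPM; vertical bars are medians of the pathway lists, and the dotted lines mark a difference of 1 either way. Tmem213 (7.71) and Atp6v0a4 (6.69) lay farthest to the right, and the widely expressed V1 and V0 lists had medians of 0.43 and 0.89.

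Tmem213 and Atp6v0a4 were also above most other libraries in the 2C set, 1 library per medium. Tmem213 was at 10.70 TPM in 2C, 5.17 in 2C+MTG, 61.93 in 2C+F10, 28.98 in 2C+VC and 11.57 in the unnumbered ALL library. Atp6v0a4 was at 5.19, 1.64, 18.56, 7.42 and 1.95 TPM in the same order. Both genes were highest in 2C+F10 and above 1 TPM in all 5 libraries. Outside the 2C set and the DCI library, Atp6v0a4 did not exceed 2.79 TPM in any library.

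Scnn1a varied most among the sodium channel subunits, at 34.50 TPM in 2C, 8.28 in 2C+MTG, 96.38 in 2C+F10, 166.56 in 2C+VC and 104.15 in ALL. Scnn1b was at 17.04, 11.95, 27.34, 34.44 and 23.63 TPM and Scnn1g at 28.22, 35.06, 43.92, 54.86 and 34.08 TPM. All 3 subunits were highest in 2C+VC, and in 2C+MTG Scnn1a was below both of the others. Cftr was at 23.33, 7.10, 22.30, 38.98 and 18.76 TPM, lowest in 2C+MTG and highest in 2C+VC. Slc26a4 was at 0.17, 0.37, 0.40, 2.95 and 1.28 TPM, Trpv6 at 17.78 to 35.12 TPM, and Atp6v1c2 at 34.58 to 84.49 TPM.

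Compared with 2C, 3 of 8 transport genes were higher by the fold used in 2C+F10, Atp6v0a4 (1.66), Tmem213 (2.43) and Scnn1a (1.46), where 5.9% of all genes passed. In 2C+MTG 3 were lower, Atp6v0a4 (-1.23), Cftr (-1.59) and Scnn1a (-1.94), against 7.52% of all genes. In 2C+VC Tmem213 (1.36) and Scnn1a (2.24) were higher, against 9.61%, and in the unnumbered ALL library Scnn1a was higher (1.57) and Atp6v0a4 lower (-1.07), against 12.3%. Scnn1a was the one transport gene that passed in all 4 comparisons, which share the 2C library. Of the pathway genes, 4 of 59 (6.78%) passed in 2C+F10, 4 of 58 (6.9%) in 2C+MTG, 5 of 59 (8.47%) in 2C+VC and 5 of 58 (8.62%) in ALL. Aqp1 was higher than its 11.16 TPM in 2C in all 4, at 57.42 TPM in 2C+MTG, 28.61 in 2C+F10, 38.31 in 2C+VC and 35.98 in ALL. Airway secretory and ciliated markers, 8 genes, summed to 174 TPM in 2C, 4.99 in 2C+MTG, 800 in 2C+F10 and 4670 in 2C+VC. In ALL all 6 of them that reached 5 TPM were lower than in 2C. Of 10 alveolar type 2 markers, 4 were higher in 2C+F10, 9 in 2C+VC and 7 in ALL. In 2C+MTG 1 was higher and 3 were lower. Of alveolar type 1 markers, 3 of 7 were higher in 2C+F10 and 6 of 8 in 2C+VC. In 2C+MTG 2 of 7 were lower, and in ALL 4 of 8 were higher and 1 lower. Mesenchymal, endothelial and blood markers summed to 99.8 TPM in 2C+F10 and 7.24 TPM in 2C. The part of these cell types in the differences was not tested.

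**Figure D4:**
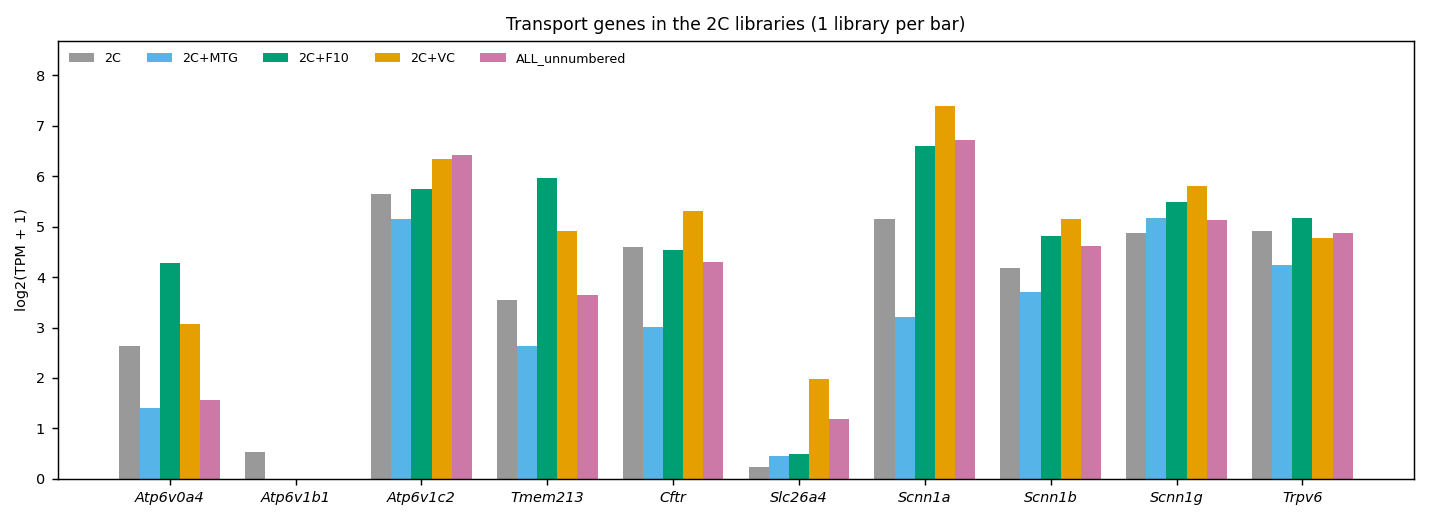
Level of each gene, as log2(TPM + 1), in 2C, 2C+MTG, 2C+F10, 2C+VC and the unnumbered ALL library, 1 bar per library. Tmem213 and Atp6v0a4 were highest in 2C+F10, at 61.93 and 18.56 TPM, and Scnn1a was lowest in 2C+MTG and highest in 2C+VC, at 8.28 and 166.56 TPM.

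When 1 component was left out of the complete medium, Slc26a4 was lower each time. It was at 221.90 and 129.43 TPM in the 2 ALL libraries, at 45.35 and 27.60 TPM in ALL-FGF10, at 26.40 and 36.09 TPM in ALL-MTG and at 27.89 and 31.51 TPM in ALL-VC. The differences from ALL on the log2(TPM + 1) scale were -2.23, -2.42 and -2.48. The 3 differences share the same 2 ALL libraries, so they are not separate observations of a fall. The unnumbered ALL library of the 2C set, at 1.28 TPM, lay below all 6 libraries that lacked a component.

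Scnn1a was lowest without VC and Trpv6 lowest without MTG. Scnn1a was at 42.59 and 35.71 TPM in ALL, 24.27 and 21.52 TPM in ALL-FGF10, 43.20 and 21.86 TPM in ALL-MTG, and 4.83 and 8.68 TPM in ALL-VC. The ALL-VC pair was the lowest, with a difference of -2.41 from ALL. Scnn1b (8.72 and 17.28 TPM in ALL-VC, 19.10 and 21.92 TPM in ALL) and Scnn1g (32.62 and 40.19 TPM against 30.61 and 21.89 TPM) lay closer to ALL, with Scnn1g higher and Scnn1b lower than both ALL libraries. The ENaC subunits were therefore further apart without VC, with a ratio of Scnn1a to Scnn1g of 0.148 and 0.216 in the ALL-VC libraries and of 1.39 and 1.63 in ALL.

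Trpv6 was at 28.59 and 17.44 TPM in ALL, 22.63 and 19.64 TPM in ALL-FGF10, 1.94 and 6.70 TPM in ALL-MTG, and 50.77 and 56.43 TPM in ALL-VC. The 2 libraries without MTG were the lowest and the 2 without VC the highest of the 8. Trpv6 differed by -3.52 between ALL-MTG and ALL-VC and by 2.21 between ALL-FGF10 and ALL-MTG, and by -2.30 between ALL-MTG and ALL. Cftr was at 11.84 and 24.99 TPM in ALL-MTG and 28.59 to 51.13 TPM in the other 6 libraries. Atp6v1c2 was at 28.42 to 89.08 TPM. Tmem213 did not exceed 5.43 TPM nor Atp6v0a4 0.82 TPM, and Atp6v1b1 was listed at 0 in all 8.

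**Figure D5:**
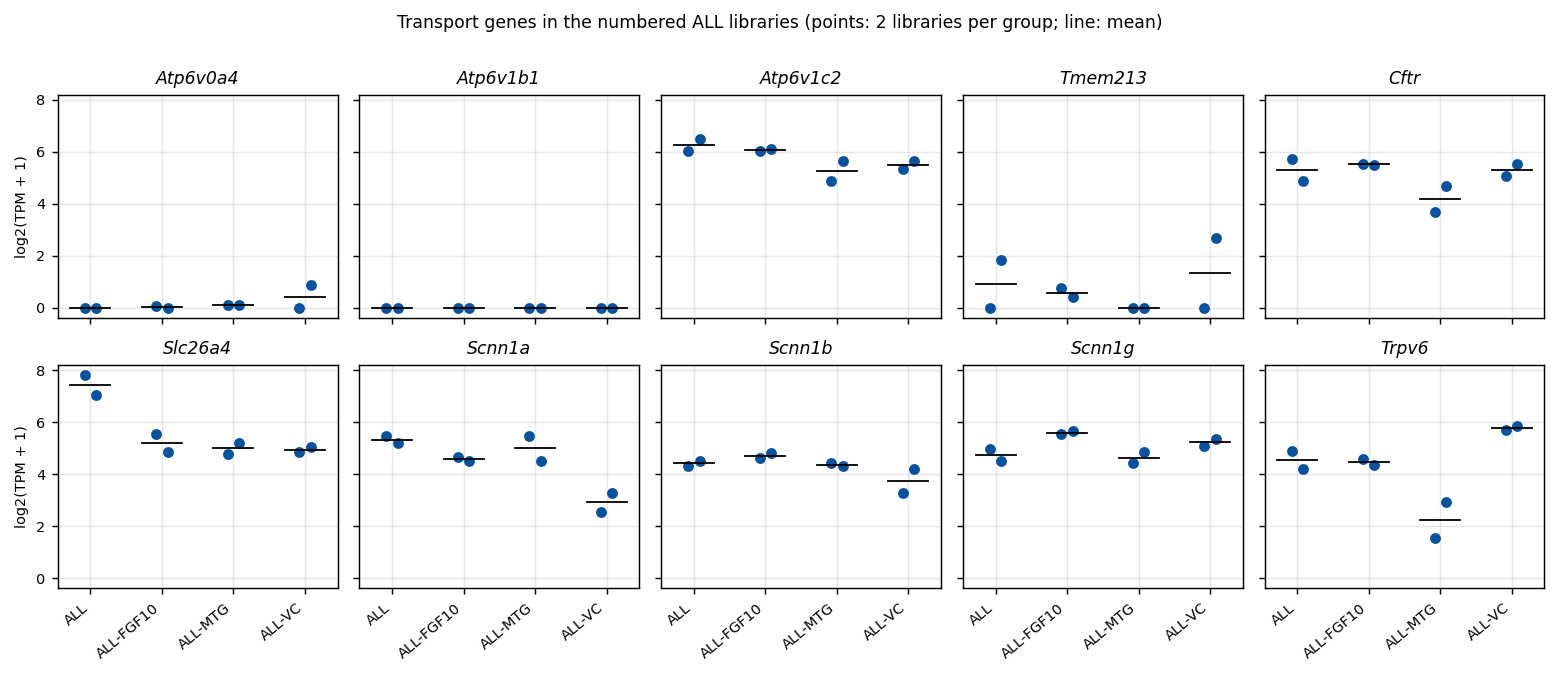
Level of each gene, as log2(TPM + 1), in ALL and in the 3 media lacking FGF10, MTG or VC, 2 libraries per group (points) with their mean (line). Slc26a4 was highest in the 2 ALL libraries, Scnn1a lowest in ALL-VC and Trpv6 lowest in ALL-MTG.

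Against ALL, 1.83% of 14802 genes were called in ALL-FGF10, 0.513% in ALL-MTG and 0.804% in ALL-VC. Of the 8 transport genes tested, 1, 1 and 2 were, Slc26a4 in each and Scnn1a in ALL-VC. Between the reduced media, 3.52% of genes were called for ALL-FGF10 against ALL-MTG, 3.82% for ALL-FGF10 against ALL-VC and 0.547% for ALL-MTG against ALL-VC, and 1 transport gene in each: Trpv6, Scnn1a (difference 1.67) and Trpv6. These calls changed when single libraries were left out: each of the 6 counts dropped to 0 without some 1 library, that between ALL-VC and ALL without either ALL-VC library. Nothing says that the libraries numbered 1 and 2 came from separate cultures, so the tests measure the spread between these libraries. Mesenchymal, endothelial and blood markers summed to 9.27 and 99.7 TPM in the 2 ALL libraries and to 11.1 and 184 TPM in the 2 ALL-MTG libraries. Alveolar type 1 markers summed to 1607 to 1869 TPM in ALL and 1903 to 1950 in ALL-FGF10. Their sums were 1193 to 1590 TPM in ALL-MTG and 1393 to 1435 in ALL-VC. The 10 alveolar type 2 markers summed to 65130 to 100417 TPM in ALL and 102495 to 110907 in ALL-FGF10. In ALL-MTG they summed to 86906 to 87901 TPM and in ALL-VC to 67794 to 74576. Single members differed more, and not all the same way. Sftpa1 was at 1843 ± 140 TPM in ALL-FGF10, 349 ± 82 in ALL-MTG and 462 ± 289 in ALL-VC (SD, n = 2 each). Slc34a2 was at 2011 ± 346, 447 ± 149 and 486 ± 158 TPM in the same order. Napsa was lower in ALL-FGF10 (64.67 and 93.17 TPM) than in ALL-MTG (122.75 and 94.63). Etv5 was too (169.56 and 184.31 against 287.34 and 265.17 TPM). The part of these cells was not tested.

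Of 69 tested pathway genes, 2 (2.9%) were called when FGF10 was left out of ALL and 1 (1.45%) when MTG was. There were 7 (10.1%) for ALL-FGF10 against ALL-MTG, 2 for ALL-FGF10 against ALL-VC and 1 for ALL-MTG against ALL-VC. The pathway lists were chosen with earlier results of these data known. The calls and p-values below are therefore a description and are not read as support. Without FGF10, Sgk1 fell from 24.4 ± 6.1 TPM in ALL to 4.68 ± 0.98 TPM (SD, n = 2 each; limma, adjusted p = 0.019) and Atp1b1 rose from 267 ± 33 to 465 ± 15 TPM (SD, n = 2 each; limma, adjusted p = 0.037). Of 15 alternatives Sgk1 lost its call in 4 and Atp1b1 in 8, both without either ALL-FGF10 library, without the second ALL library and with only the 2 groups fitted (limma, adjusted p up to 0.24 and 0.47). Without MTG, S100g fell from 235 ± 46 to 40.4 ± 17.8 TPM (SD, n = 2 each; limma, adjusted p = 0.022), and its level was also lower in ALL-MTG than in ALL-VC (219 ± 8 TPM; limma, adjusted p = 0.019) and than in ALL-FGF10 (369 ± 15 TPM; limma, adjusted p = 0.0018). This gene, a partner of Trpv6 in calcium uptake, was thus lowest in the medium in which Trpv6 was lowest. The 2 genes parted elsewhere: S100g was highest in ALL-FGF10 and Trpv6 in ALL-VC. The call of S100g against ALL was lost in 5 of 15 alternatives (limma, adjusted p up to 0.083), among them no filter, only the 2 groups and leaving out the second ALL or either ALL-VC library. That against ALL-VC was lost in 6 (up to 0.16), and that against ALL-FGF10 in none of the 15. Between ALL-FGF10 and ALL-MTG, Aqp1 was lower without FGF10 (6.23 ± 1.26 against 30.7 ± 5.9 TPM; limma, adjusted p = 0.018), and the ENaC-activating protease gene Prss8 was higher (139 ± 3 against 78.2 ± 9.9 TPM; limma, adjusted p = 0.022). The 2 calls were lost in 4 and 7 alternatives. Between ALL-FGF10 and ALL-VC, Aqp5 was higher without FGF10 (175 ± 7 against 37.7 ± 9.2 TPM; limma, adjusted p = 0.022), a call lost in 5 alternatives. The calls of Aqp1, Prss8 and Aqp5 were each lost without either ALL-FGF10 library. Between ALL-VC and ALL none of the 69 passed with limma, and 13 of them had an unadjusted p under 0.05.

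The organoid pieces held the highest Slc26a4 of all libraries. It was at 97.73 TPM in the larger upper piece, 470.31 in the lower, 427.27 in the left, 423.51 in the right, and 514.21, 464.10, 98.91 and 499.89 TPM in the upper left, upper right, lower left and lower right pieces, with 278.64 TPM in the intact organoid. Of the 8 pieces 6 thus lay between 423.51 and 514.21 TPM and 2 were far below, and those 2, the larger upper piece and the lower left piece, were neither both upper nor both left. The same 2 pieces held the highest sums of mesenchymal, endothelial and blood markers, at 34.5 and 27.7 TPM against 5.18 to 12.6 TPM in the other pieces. They also held the highest sums of alveolar type 2 markers, at 90790 and 107567 TPM against 58366 to 81787 TPM. The part of these cells in Slc26a4 was not tested. Cftr was at 30.58 to 67.93 TPM, Scnn1a at 47.03 to 122.97 TPM, above the 32.65 TPM of the intact organoid in all 8 pieces, Trpv6 at 10.51 to 34.88 TPM and Atp6v1c2 at 28.16 to 69.20 TPM. Atp6v1b1 was listed at 0 in all 8 pieces, and Tmem213 did not exceed 2.05 TPM.

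Between upper and lower pieces, 3 of each in a fit to all 9 libraries, Scnn1g was at 35.88, 35.44 and 34.34 TPM in the upper and 56.64, 47.84 and 54.87 TPM in the lower pieces. These did not overlap, with a difference of -0.58 on the log2 scale, yet limma called 0% of 15017 genes, 0 of them among the 8 transport genes tested, and 663 genes had an unadjusted p under 0.05. Scnn1a differed by -0.61 and Scnn1b by -0.39 in the same direction, and their groups overlapped when larger and smaller pieces were pooled. Scnn1a was at 102.73 TPM in the larger upper and 122.97 in the larger lower piece, and at 48.49 and 47.03 TPM in the smaller upper and 86.30 and 79.53 TPM in the smaller lower pieces. Slc26a4 differed by 0.00 ± 0.72 (SE) between upper and lower pieces and by -0.72 ± 0.72 (SE) between left and right pieces. Between left and right pieces limma likewise called 0% of genes and 0 transport genes, and 463 genes had an unadjusted p under 0.05.

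Genes whose levels went most like those of each transport gene over the 10 organoids were listed by Pearson's r on log2(TPM + 1), as a description over organoids that differ in stage and culture time. Slc26a4 went most like Tmem54 (r = 0.97 over 10 organoids, 0.83 over the 8 libraries of the ALL media), Trpv6 most like Bambi (0.94 and 0.87) and Scnn1b most like Pard6b (0.91 and -0.08). For Cftr it was Sec61a1 (0.93 and -0.30), for Scnn1a Pura (0.93 and -0.05), for Scnn1g Ankrd40 (0.90 and 0.82), for Tmem213 Otud5 (0.91 and 0.05) and for Atp6v1c2 Pla2g7 (0.94 and 0.47). Of these 8 leading genes, 3 had an r above 0.8 in the second set of libraries. Each was picked as the highest r among all genes searched, so a high r over 10 organoids follows from the choice. The share of all genes above 0.8 in the second set is not given, and nothing is read from the count.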

How the data were processed

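The 5 deposited tables give gene-level TPM; the submitters' processing notes name RSEM, Bowtie2 and the mouse build mm10; versions and strand settings are not given in the sources used here. TPM were used as deposited, and depth and counting error are unknown. The 40 columns were matched to libraries by name; 1 column that matches no library of its table was left out. Values were taken as log2(TPM + 1), genes with at least 1 TPM in 2 libraries were kept, and limma 3.58.1 (R 4.3.3, eBayes with trend) was fitted within each table, with Benjamini-Hochberg adjustment over all tested genes. The fits were tested on simulated data. Comparisons of single libraries have no test. The members, the 8 pathway lists and the 7 marker lists were chosen with earlier results of these data known. Of the 92 pathway genes, 91 are in the tables. Pathway genes were named by rule: up to 4 called genes per list and comparison with the largest change and at least 5 TPM in the higher group; the text gives a selection of them. Genes most like a member were the first 3 by Pearson's r over the 10 organoids, of which the text gives the first. Alternatives were another pseudocount, no filter, 2 rescalings, no variance trend, fewer groups, a replicate block and each library left out. The numbers 1 and 2 of the ALL media were not taken as pairs: the labels do not link them, and deviations of same-numbered libraries correlated by -0.07 to 0.114 across 14802 genes. Loci are from GENCODE M21 (GRCm38).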

Additional observations from a re-analysis of the deposited data

Results flagged for a closer look

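In groups of 4 to 10 libraries, 4 of 24 gene and group sets held a library separated from the rest by a wide gap. The libraries of a set were not replicates of 1 condition, so no share expected by chance is set beside this count. Tmem213 was at 30.02 TPM in the 30-day organoid from E13.5, with the next organoid at 14.02 TPM. Scnn1b was highest in the same organoid, at 51.19 TPM, with the next at 28.84 TPM. Slc26a4 was at 139.6 TPM in the 24-day organoid from E14, with the next at 39.11 TPM. Atp6v0a4 was at 2.79 TPM in the larger left piece, with the next piece at 0.53 TPM.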

How the results depend on the processing

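Of 326 values of single transport genes recomputed under the alternatives, none changed sign, 258 kept their call or fold and 68 lost it; the cause was not tested. Between organoids and tips 6 or 7 transport genes and 56 to 66 pathway genes were called under every alternative run. Of 1578 values of single pathway genes 1440 kept their call, 138 lost it and none changed sign. Leaving out 1 library gave these ranges of transport genes called: 0 to 1 for culture day and for embryonic day, and 0 to 2 for each of the 6 comparisons of ALL media. For pathway genes they were 3 to 9 (culture day), 0 to 3 (embryonic day), 0 to 11 (ALL-FGF10 minus ALL), 0 to 1 (ALL-MTG minus ALL), 0 to 8 (ALL-VC minus ALL), 1 to 9 (ALL-FGF10 minus ALL-MTG), 0 to 5 (ALL-FGF10 minus ALL-VC) and 0 to 2 (ALL-MTG minus ALL-VC).

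For embryonic day, no transport gene (0) was called with a pseudocount of 0.1 TPM, median-ratio rescaling or quantile normalization, and 0 pathway genes with the pseudocount. Without a filter the count of transport genes was 0 in all 6 comparisons of ALL media, and pathway counts were 5 for culture day, 0 for ALL-MTG minus ALL, 1 for ALL-FGF10 minus ALL-VC and 0 for ALL-MTG minus ALL-VC. With only the 2 groups compared in the fit, transport genes called were 0 for ALL-FGF10 minus ALL, ALL-MTG minus ALL, ALL-FGF10 minus ALL-MTG and ALL-MTG minus ALL-VC, 1 for ALL-VC minus ALL and 3 for ALL-FGF10 minus ALL-VC. Pathway genes called were then 0 for ALL-FGF10 minus ALL, ALL-MTG minus ALL and ALL-MTG minus ALL-VC and 11 for ALL-FGF10 minus ALL-VC. Without a variance trend transport counts were 0 for ALL-MTG minus ALL, ALL-FGF10 minus ALL-MTG and ALL-FGF10 minus ALL-VC and 1 for ALL-VC minus ALL, and 1 pathway gene for ALL-FGF10 minus ALL. With the pseudocount of 0.1 TPM they were 0 for ALL-FGF10 minus ALL-MTG and ALL-FGF10 minus ALL-VC. Quantile normalization gave 2 for ALL-FGF10 minus ALL-MTG and for ALL-MTG minus ALL-VC, and median-ratio rescaling 2 for ALL-MTG minus ALL-VC and 1 pathway gene for ALL-VC minus ALL.

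With a replicate block the transport genes called were 0 for ALL-FGF10 minus ALL-MTG and ALL-FGF10 minus ALL-VC and 1 for ALL-VC minus ALL, and 1 pathway gene for ALL-FGF10 minus ALL; the 3 other transport counts were 1 as without it, and all genes called were 143, 48, 68, 391, 428 and 45 in place of 271, 76, 119, 521, 565 and 81.

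Between single libraries, median-ratio rescaling gave 1 transport gene for LO day 11 minus day 8, 4 for 2C+VC minus 2C and 8 pathway genes for ALL minus 2C, and no minimum TPM gave 14 pathway genes for LO day 18 minus day 11 and 9 for ALL minus 2C. The share of all genes called ranged over the alternatives from 39.6 to 62.6% (organoids minus tips), 2.58 to 10.9% (culture day), 0.0107 to 0.0602% (starting stage), 0.0841 to 1.2% (embryonic day), 0.0621 to 7.89% (ALL-FGF10 minus ALL), 0.0270 to 1.31% (ALL-MTG minus ALL), 0.0547 to 8.99% (ALL-VC minus ALL), 0.131 to 5.74% (ALL-FGF10 minus ALL-MTG), 0.104 to 15.7% (ALL-FGF10 minus ALL-VC) and 0.0411 to 1.39% (ALL-MTG minus ALL-VC). Median-ratio rescaling moved the median difference of all genes between organoids and tips from -0.20 to 0.04, and the share of higher genes among those called from 35.0 to 48.7% there and from 30.8 to 59.9% for culture day. TPM hold no depth, so values near 0 have no error of their own.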
